A study of Homo sapiens with 6 samples.

Results

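The genes described here are 39 members of the hypoxia response: the subunits of the hypoxia-inducible factors (HIFs), the enzymes that sense oxygen for them, and target genes that HIFs are known to switch on. They were chosen by symbol, as known members of the pathway, and all 39 were found among the 56638 gene symbols that were counted. Of these, 36 had enough reads for a test. The question was whether the RNA of these genes moved when METTL3 was knocked out, and whether it moved with the RNA of the enzymes of glucose use.

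HIFs are dimers of an oxygen-labile alpha subunit and a stable beta subunit. With oxygen present, prolyl hydroxylases of the EGLN family mark the alpha subunit, VHL binds the mark, and a ubiquitin ligase built on VHL sends the subunit to the proteasome. When oxygen is short the alpha subunit persists, binds DNA at a short core sequence called the hypoxia response element, and raises genes for glucose uptake, acid export, new vessels, mitophagy and matrix hardening. Several of these genes are also expressed at normal oxygen in tumour cells, and the amount of HIF protein is not measured by RNA-seq.

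RNA-seq was performed on HCT116 cells, a human colorectal carcinoma line, in 3 wild-type (WT) and 3 METTL3-knockout (METTL3-KO) samples at passages 16 to 19. METTL3 is the catalytic subunit of the enzyme that writes m6A, a methyl mark on adenosines of mRNA. The METTL3-KO cells are described as 1 monoclonal line made with a lentiviral CRISPR-Cas9 construct and puromycin selection, so clonal differences and the loss of METTL3 cannot be told apart, and the WT samples are not described as vector controls. The deposited files abbreviate the METTL3-KO samples as SiM3 and the WT samples as NC, which the labels do not explain, and a knockout and a knockdown by siRNA cannot be told apart from these counts. The labels name no oxygen treatment in either group, and they do not say whether the samples of a group were separate cultures, so p-values measure the spread between these samples only, which may be technical.

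Reads assigned to genes ran from 20936091 to 30142144 per sample. Levels are given in CPM, the counts of a gene scaled to the size of its library. METTL3 itself averaged 30 CPM in WT and 7.28 CPM in METTL3-KO (log2 fold change -2.04, adjusted p = 3.27e-07), which follows the labels. Of 8 epithelial markers, 8 were at 1 CPM or more, with a summed level of 5800 to 7190 CPM in WT and 8300 to 9250 CPM in METTL3-KO. The fibroblast list summed to 4.69 to 6.19 CPM in WT and 6.3 to 7.91 CPM in METTL3-KO, nearly all of it COL1A1, with COL1A2, COL3A1 and PDGFRA at 0 counts in every sample. The immune list summed to 1010 to 1050 CPM in WT and 666 to 725 CPM in METTL3-KO, nearly all of it LYZ, while PTPRC stayed at or below 0.0469 CPM, and the endothelial list did not pass 0.182 CPM. Replicate 3 stood apart from replicates 1 and 2 in both groups. The chi-square per gene between samples was 2.44 for WT replicates 1 and 2 but 20.8 and 20.7 against WT replicate 3, and 2.23 for METTL3-KO replicates 1 and 2 but 10.1 and 7.61 against METTL3-KO replicate 3. The deviation of a gene from its group mean went with transcript length in opposite directions in the 2 libraries. The r was 0.631 in WT replicate 3 and -0.569 in METTL3-KO replicate 3, over 9437 genes. It was -0.568 and -0.52 in WT replicates 1 and 2, and 0.472 and 0.374 in METTL3-KO replicates 1 and 2. Results are also given without both replicates 3. That fit keeps samples with a negative r in WT and a positive r in METTL3-KO, so this length deviation and the group cannot be told apart in it. It also rests only on the pairs with the low chi-square values.

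In METTL3-KO cells, 6 of the 36 tested genes fell and 8 rose at an adjusted p under 0.05, and 22 did not pass the test. The genes that fell were EGLN2, SLC2A1, CA9, VEGFA, BNIP3 and LOX. The genes that rose were EPAS1, EGLN3, ADM, P4HA2, KDM4B, JMJD6, BHLHE40 and NDRG1. In 3 of the 5 roles that held 2 called genes (oxygen sensing, secreted products and collagen enzymes), 1 gene fell and 1 rose.

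Set beside all genes of like level, these shares did not stand out. Among 22452 genes tested, 13.4% fell and 13.4% rose (26.8% called in either direction), against 16.7% and 22.2% of the tested HIF genes (38.9% in either direction). HIF genes were better covered than the rest, with a median level of 5.51 against 2.37 on the log2 CPM scale, and better covered genes are called more often. Among the genes above a mean log2 CPM of 3, 40.7% of all 10378 genes were called, and 11 of 27 HIF genes, also 40.7%, with 14.8% of the HIF genes lower (20.6% of all genes) and 25.9% higher (20.1% of all genes). The median log2 fold change was 0.11 over the HIF genes and -0.021 over all genes tested. Of the 36 tested HIF genes, the samples of the groups lay fully apart for 6 that were lower and 12 that were higher. That state was shared by 20.7% (lower) and 20.2% (higher) of all genes tested, and its share among genes of like level was not computed. Because cells were measured in bulk, fewer cells with a transcript and less of it per cell cannot be told apart.

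**Figure D1:**
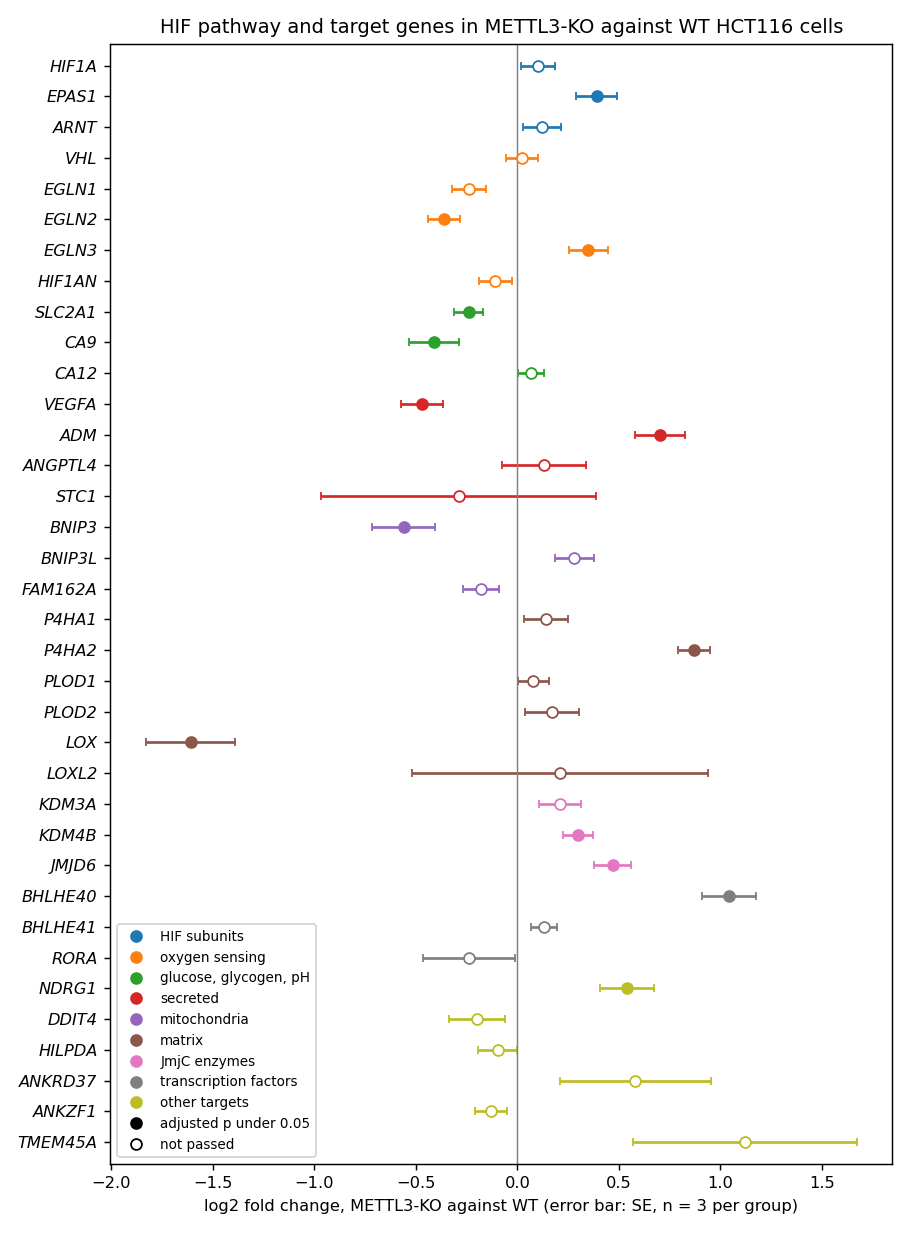
Log2 fold change of the 36 tested HIF pathway and target genes, METTL3-KO against WT, with the standard error as bars and colour for the role of the gene. Filled points passed an adjusted p of 0.05: 6 lie left of 0, down to LOX at -1.61, and 8 lie right of it, up to BHLHE40 at 1.04, and the open point of TMEM45A at 1.12 has a standard error of 0.552.

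Among the subunits, EPAS1 rose and the other two did not pass. EPAS1 (chromosome 2, 46520806 to 46613836 on GRCh37), which encodes HIF-2α, was at 47.4, 51.9 and 62.4 CPM in WT replicates 1 to 3 and at 74.6, 70.1 and 67.2 CPM in METTL3-KO replicates 1 to 3. The groups did not overlap, although both replicates 3 lay nearest to the other group. The log2 fold change was 0.39 ± 0.1 (SE, n = 3 per group; adjusted p = 0.0137). The call was lost without WT replicate 1 (0.31, adjusted p = 0.0588) and without METTL3-KO replicate 1 (0.35, adjusted p = 0.0667), and without both replicates 3 the log2 fold change was 0.55.

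HIF1A (chromosome 14, 62162231 to 62214977), the alpha subunit HIF-1α, was at 74.7, 71.3 and 83 CPM in WT and at 88.8, 80 and 76.9 CPM in METTL3-KO. The groups overlapped, since WT replicate 3 lay above METTL3-KO replicates 2 and 3 (log2 fold change 0.10 ± 0.0846, adjusted p = 0.405). ARNT (chromosome 1, 150782189 to 150849184), the beta subunit, was at 43.1, 40.5 and 50.5 CPM in WT and at 52.1, 47.9 and 45.9 CPM in METTL3-KO. It showed the same layout, with WT replicate 3 inside the METTL3-KO range (0.12 ± 0.0949, adjusted p = 0.372). Without both replicates 3, HIF1A stood at 0.21 (adjusted p = 0.00165) and ARNT at 0.26 (adjusted p = 0.000775), and ARNT also passed without WT replicate 3 alone (0.22, adjusted p = 0.0368). With all samples and a correction for transcript length and GC content, HIF1A (0.13, adjusted p = 0.145) and ARNT (0.11, adjusted p = 0.299) did not pass.

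Among the oxygen sensors, 2 members of the EGLN family moved in opposite directions. EGLN2 (chromosome 19, 41304901 to 41314339), the prolyl hydroxylase PHD1, was at 28.6, 28.3 and 27.7 CPM in WT and at 23, 21 and 21.6 CPM in METTL3-KO. The groups were tight and apart, and EGLN2 fell by 0.36 ± 0.079 on the log2 scale (adjusted p = 0.00565), a call that held when any single sample was left out. Of its exon bases, 30.6% also belong to the readthrough gene RAB4B-EGLN2 on the same strand.

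EGLN3 (chromosome 14, 34393433 to 34931980), the prolyl hydroxylase PHD3 and itself a HIF target, was at 20.4, 19.7 and 19.3 CPM in WT and at 23.3, 28.4 and 24.2 CPM in METTL3-KO. Every METTL3-KO sample lay above every WT sample, with METTL3-KO replicate 2 the highest (0.35 ± 0.0946, adjusted p = 0.0179). The call was lost without WT replicate 2 (adjusted p = 0.0568) or without METTL3-KO replicate 2 (0.26, adjusted p = 0.0882).

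EGLN1 (chromosome 1, 231499497 to 231558033), PHD2 and the main HIF prolyl hydroxylase in most cells, was at 60.4, 55.3 and 62.9 CPM in WT and at 51.4, 53.6 and 46.6 CPM in METTL3-KO. The groups lay apart but the test was not passed (-0.24 ± 0.083, adjusted p = 0.0563), and 55.8% of its exon bases are shared with another annotated protein-coding gene, ENSG00000287856, on the same strand. Without both replicates 3 it was at -0.15 (adjusted p = 0.0415), and with a correction for transcript length and GC content it was at -0.25 (adjusted p = 0.0149).

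VHL (chromosome 3, 10183462 to 10195351), the substrate receptor of the ligase, was at 44.7, 40.9 and 47.1 CPM in WT and at 46.1, 44.7 and 44 CPM in METTL3-KO. Its METTL3-KO samples lay within the WT range (0.02 ± 0.0783, adjusted p = 0.853), and 23.5% of its exon bases are shared with a long noncoding RNA on the other strand. HIF1AN (chromosome 10, 102288829 to 102319755), the asparagine hydroxylase that blocks coactivator binding, was at 111, 105 and 124 CPM in WT and at 109, 108 and 98.8 CPM in METTL3-KO, again with overlap (-0.11 ± 0.0809, adjusted p = 0.367).

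**Figure D2:**
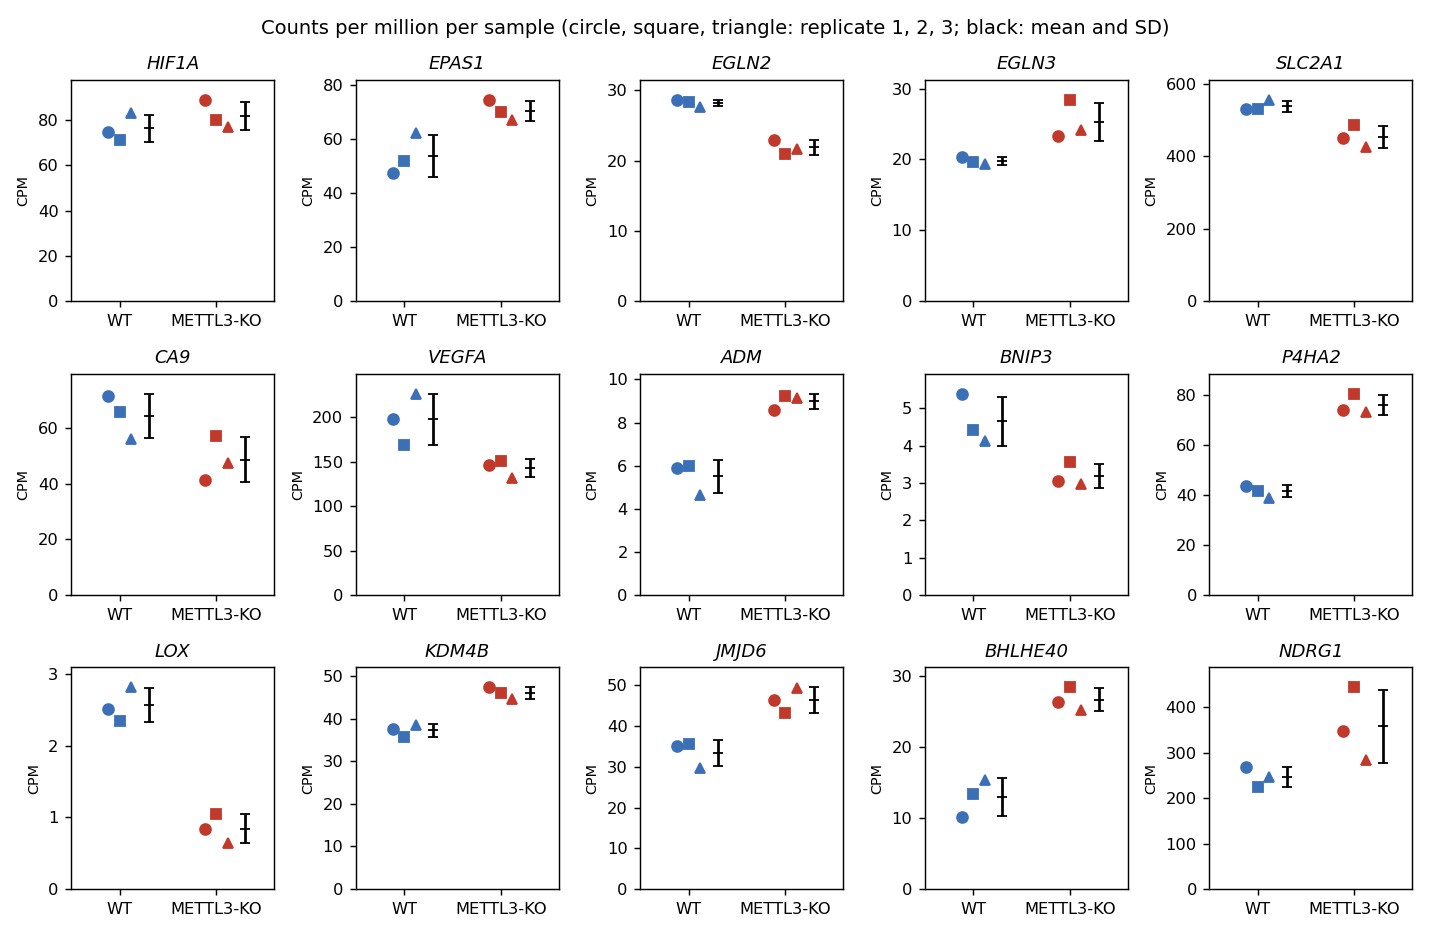
CPM in each sample for HIF1A and the 14 genes that passed the test, each axis starting at 0, with replicates 1 to 3 as circle, square and triangle and the group mean with its SD in black. The groups are separate in 13 of the 14 called genes; in CA9, METTL3-KO replicate 2 at 57.2 CPM lies above WT replicate 3 at 55.9 CPM.

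In the group of glucose and acid handling, SLC2A1 and CA9 fell, CA12 did not pass, SLC2A3 was barely detected and PPP1R3C was not detected. SLC2A1 (chromosome 1, 43391024 to 43424564), the glucose transporter GLUT1, was at 529, 529 and 555 CPM in WT and at 450, 486 and 425 CPM in METTL3-KO. The groups lay apart, and SLC2A1 fell by 0.24 ± 0.0708 on the log2 scale (adjusted p = 0.0245). The call was lost without WT replicate 1 or 2 (adjusted p = 0.0729 and 0.0737) and without METTL3-KO replicate 1 or 3 (adjusted p = 0.103 and 0.0997), while the log2 fold change stayed between -0.29 and -0.20.

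CA9 (chromosome 9, 35673925 to 35681156), a membrane carbonic anhydrase whose transcript is a widely used readout of HIF-1, was at 71.6, 65.7 and 55.9 CPM in WT and at 41.5, 57.2 and 47.5 CPM in METTL3-KO. Of the 14 called HIF genes it was the only 1 whose groups overlapped (-0.41 ± 0.122, adjusted p = 0.0297), and 35.7% of its exon bases are shared with ARHGEF39 on the other strand. The call was lost without WT replicate 1 or 2 (adjusted p = 0.133 and 0.0982) and without METTL3-KO replicate 1 or 3 (adjusted p = 0.135 and 0.0803), with values between -0.53 and -0.30.

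CA12, a second membrane carbonic anhydrase, was at 290, 302 and 308 CPM in WT and at 318, 311 and 312 CPM in METTL3-KO. The groups did not touch, but the log2 fold change was 0.06 ± 0.0635 (adjusted p = 0.488). SLC2A3, the transporter GLUT3, had 1 count in all, in WT replicate 3. PPP1R3C, which targets protein phosphatase 1 to glycogen, had 0 counts in every sample, which allows a level of up to 0.042 CPM over the WT group and 0.0397 CPM over the METTL3-KO group, counting error alone considered.

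Among the secreted products, VEGFA fell and ADM rose. VEGFA (chromosome 6, 43737921 to 43754224), the main angiogenic growth factor, was at 198, 169 and 226 CPM in WT and at 146, 151 and 132 CPM in METTL3-KO. The groups did not overlap, and WT replicate 3 was the highest of all samples. VEGFA fell by 0.47 ± 0.103 on the log2 scale (adjusted p = 0.00579), passed with any single sample left out, and stood at -0.31 without both replicates 3.

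ADM (chromosome 11, 10326620 to 10328944), the vasodilator peptide adrenomedullin, was at 5.9, 5.97 and 4.64 CPM in WT and at 8.59, 9.24 and 9.14 CPM in METTL3-KO. The groups were well apart. The level in METTL3-KO was 1.62-fold that of WT (log2 0.70 ± 0.123, adjusted p = 0.00156), and the call held with any single sample left out.

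ANGPTL4, an inhibitor of lipoprotein lipase, ranged from 2.11 to 2.59 CPM in WT and from 2.09 to 3.41 CPM in METTL3-KO (0.13 ± 0.206, adjusted p = 0.687). Of the stanniocalcins, STC1 did not pass 0.136 CPM in any sample and STC2 had 1 count in all, in WT replicate 1. No difference in either could be detected at this depth.

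Of the genes that act at mitochondria, BNIP3 fell. BNIP3 (chromosome 10, 133781188 to 133795471), a receptor that brings mitochondria to autophagosomes, was at 5.39, 4.42 and 4.13 CPM in WT and at 3.05, 3.55 and 2.98 CPM in METTL3-KO. The groups lay apart by less than 1 CPM (-0.56 ± 0.154, adjusted p = 0.02). The call was lost without WT replicate 1 (-0.43, adjusted p = 0.107), METTL3-KO replicate 1 (adjusted p = 0.0833) or METTL3-KO replicate 3 (adjusted p = 0.0629).

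BNIP3L, its paralog and the mitophagy receptor also called NIX, was at 37.3, 32.5 and 35.4 CPM in WT and at 42.5, 47.4 and 37.8 CPM in METTL3-KO. It lay on the other side of 0 from BNIP3, with the groups apart, just short of the threshold (0.28 ± 0.0963, adjusted p = 0.0531). It passed without either replicate 3 (adjusted p = 0.0313 without that of WT and 0.0225 without that of METTL3-KO) and with the length and GC correction (adjusted p = 0.0142). FAM162A, a HIF-inducible mitochondrial protein, ranged from 83.3 to 104 CPM in WT and from 82 to 87.3 CPM in METTL3-KO, with overlap (-0.18 ± 0.0878, adjusted p = 0.168). It passed without WT replicate 3 (-0.26, adjusted p = 0.00585).

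The collagen-modifying enzymes held the largest fall and the second largest rise among the called genes. LOX (chromosome 5, 121398890 to 121414108), lysyl oxidase, which crosslinks collagen, was at 2.51, 2.34 and 2.81 CPM in WT and at 0.829, 1.05 and 0.638 CPM in METTL3-KO. No WT sample came near the METTL3-KO range. The METTL3-KO level was 0.328 of that in WT (log2 -1.61 ± 0.221, adjusted p = 0.000318), and the call held with any single sample left out.

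P4HA2 (chromosome 5, 131525840 to 131631008), a catalytic subunit of collagen prolyl 4-hydroxylase, was at 43.8, 41.8 and 39 CPM in WT and at 73.9, 80.5 and 73.2 CPM in METTL3-KO. The groups were widely separated. P4HA2 rose 1.83-fold (log2 0.87 ± 0.0782, adjusted p = 2.07e-05), the smallest adjusted p among the HIF genes, and the log2 fold change lay between 0.83 and 0.91 with any single sample left out.

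The paralog P4HA1 ranged from 69 to 76.8 CPM in WT and from 69.2 to 94.7 CPM in METTL3-KO (0.14 ± 0.107, adjusted p = 0.378). PLOD2, a lysyl hydroxylase of collagen, was at 76, 77.4 and 86.8 CPM in WT and at 91, 110 and 70.4 CPM in METTL3-KO. Its METTL3-KO replicate 3 was the lowest of the 6 samples, and the value moved from 0.17 ± 0.133 (adjusted p = 0.37) to 0.38 (adjusted p = 1.16e-05) without both replicates 3 and 0.33 (adjusted p = 0.0428) without that of METTL3-KO alone. PLOD2 did not pass with the length and GC correction (0.17, adjusted p = 0.255). PLOD1, its paralog, was at 0.08 ± 0.0764 (adjusted p = 0.497). LOXL2 did not pass 0.442 CPM in any sample and gave no usable difference (0.21 ± 0.728, adjusted p = 0.859).

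All 3 JmjC enzymes, oxygen-dependent hydroxylases and demethylases, had a positive log2 fold change, and 2 of them rose. JMJD6 (chromosome 17, 74708914 to 74722881), a lysyl hydroxylase that acts on splicing factors, was at 35, 35.6 and 29.8 CPM in WT and at 46.5, 43.2 and 49.4 CPM in METTL3-KO. The groups lay apart, and replicate 3 was the lowest WT and the highest METTL3-KO sample (0.47 ± 0.0912, adjusted p = 0.00285). The call held with any single sample left out, and the value was 0.35 without both replicates 3.

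KDM4B (chromosome 19, 4969124 to 5153609), a demethylase of histone H3 lysine 9, was at 37.6, 35.7 and 38.6 CPM in WT and at 47.4, 46 and 44.6 CPM in METTL3-KO. The groups were apart (0.30 ± 0.074, adjusted p = 0.0106), and the call was lost without METTL3-KO replicate 1 (0.28, adjusted p = 0.0547). KDM3A, also a demethylase of histone H3 lysine 9, was at 80.6, 79.4 and 92.1 CPM in WT and at 102, 107 and 81.9 CPM in METTL3-KO. The 2 replicates 3 crossed the other group's range (0.21 ± 0.104, adjusted p = 0.172), and without both the log2 fold change was 0.38 (adjusted p = 2.51e-07). KDM3A also passed without that of WT alone (0.28, adjusted p = 0.032) or that of METTL3-KO alone (0.31, adjusted p = 0.0304). It did not pass with the length and GC correction (0.17, adjusted p = 0.0594).

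Of the transcription factors, BHLHE40 rose. BHLHE40 (chromosome 3, 5021122 to 5027008), a circadian and hypoxic repressor that binds E-boxes, was at 10.1, 13.4 and 15.4 CPM in WT and at 26.4, 28.4 and 25.2 CPM in METTL3-KO. The lowest METTL3-KO sample was well above the highest WT sample. It rose 2.06-fold (log2 1.04 ± 0.133, adjusted p = 0.000199), the largest rise among the called genes, and the call held with any single sample left out, with values from 0.89 to 1.19. The antisense gene BHLHE40-AS1 shares 12.8% of its exon bases.

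Its paralog BHLHE41 was at 164, 161 and 169 CPM in WT and at 184, 176 and 178 CPM in METTL3-KO. The groups were apart but the difference was small (0.13 ± 0.0645, adjusted p = 0.176). RORA, a nuclear receptor, ranged from 2.57 to 4.36 CPM in WT and from 2.04 to 3.12 CPM in METTL3-KO (-0.24 ± 0.227, adjusted p = 0.466), and its sign turned without both replicates 3 (0.15, adjusted p = 0.548).

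Of the 6 remaining targets, NDRG1 rose and the other 5 did not pass. NDRG1 (chromosome 8, 134249418 to 134314265), a stress-induced gene that is among the common markers of hypoxic cells, was at 269, 225 and 246 CPM in WT and at 348, 444 and 284 CPM in METTL3-KO. The groups lay apart, but the METTL3-KO samples were widely spread. The log2 fold change was 0.54 ± 0.135 (adjusted p = 0.0122), and the call was lost without WT replicate 2 (0.49, adjusted p = 0.0561) or METTL3-KO replicate 2 (0.36, adjusted p = 0.0574).

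DDIT4, an inhibitor of mTORC1, was at 20.9, 19.1 and 27.6 CPM in WT and at 17.9, 22.3 and 18.8 CPM in METTL3-KO, with overlap (-0.20 ± 0.137, adjusted p = 0.323). HILPDA, a protein of lipid droplets, ranged from 18.9 to 21.9 CPM in WT and from 18.3 to 21 CPM in METTL3-KO (-0.10 ± 0.0945, adjusted p = 0.485). ANKZF1, which acts on nascent chains of stalled ribosomes, was at -0.13 ± 0.0774 (adjusted p = 0.258) and passed without WT replicate 3 (-0.18, adjusted p = 0.0479). These 3 genes shared a negative sign below the threshold.

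ANKRD37 was at 0.728, 0.885 and 0.703 CPM in WT and at 0.962, 1.91 and 0.68 CPM in METTL3-KO, so that 1 sample, METTL3-KO replicate 2, carried most of its value of 0.58 ± 0.372 (adjusted p = 0.283), and 40.3% of its exon bases are shared with UFSP2 on the other strand. TMEM45A did not pass 0.637 CPM in any sample, and its log2 fold change of 1.12 ± 0.552 did not pass the test (adjusted p = 0.162). For both genes the depth limits what could be detected.

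Levels can be compared between genes only per length of exon. In WT cells SLC2A1 was the highest HIF gene, at 81.3 CPM per kb of annotated exon, followed by CA12 (42.9), BHLHE41 (42.7), CA9 (40.3), P4HA1 (23.5) and NDRG1 (20.6). In METTL3-KO cells SLC2A1 was still first at 68.6 CPM per kb, and CA9 at 30.5 CPM per kb was close to NDRG1 at 29.9 CPM per kb. HIF1A, at 14.8 ± 1.17 CPM per kb in WT and 15.9 ± 1.2 in METTL3-KO (SD, n = 3), stayed above EPAS1, at 7.4 ± 1.05 and 9.68 ± 0.511. Of the prolyl hydroxylases, EGLN1 had the highest length-scaled level in WT (11.1 CPM per kb), then EGLN2 (4.28) and EGLN3 (2.69), and in METTL3-KO EGLN2 (3.33) and EGLN3 (3.43) were level. P4HA1 exceeded P4HA2 in both groups, at 23.5 against 4.1 CPM per kb in WT and 25.9 against 7.49 CPM per kb in METTL3-KO. The length used is that of all annotated exons of a gene together, which understates the level of genes with many alternative exons. It also includes bases shared with other genes, where reads may have been dropped. On the same strand these were 55.8% of the exon bases of EGLN1 and 30.6% of those of EGLN2. The order of EGLN2 and EGLN3 is therefore not settled by these values.

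**Figure D3:**
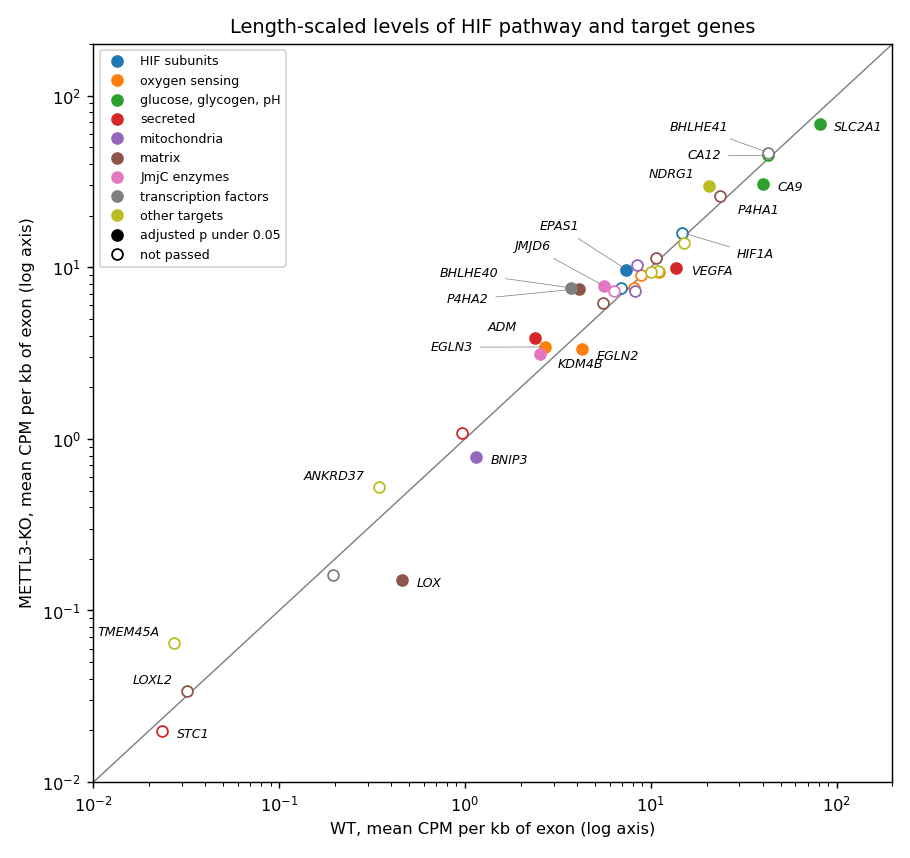
Mean CPM per kb of exon in WT (x axis) and METTL3-KO (y axis) for the 36 tested HIF genes, both axes logarithmic, with the grey line marking equal levels and filled points the genes that passed the test. The called genes lie close to the line over a wide range of levels, from SLC2A1 at 81.3 CPM per kb in WT to LOX at 0.457 CPM per kb in WT, which is farthest below it.

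Promoter sequence was read next to these values, since HIFs bind the core RCGTG (ACGTG or GCGTG). Promoter windows of 300 bases, from 250 before to 50 after the start site, came from RefSeq on GRCh38.p14 and were found for 29 of the 39 genes. Either core, on either strand, stood in 23 of the 29 windows (79.3%), in 60.3% of the windows of 11370 tested genes and in 48.4% of all 35116 windows. ACGTG was found in 51.7% of the HIF genes, 25.7% of the tested genes and 21.4% of all, and GCGTG in 48.3%, 48.1% and 36.5%. ACGTG is also part of the E-box CACGTG, a palindrome that gives a match on each strand, and which stood in 24.1% of the HIF genes and 7.26% of all windows. A core was present in 5 of 5 windows of genes that fell, 4 of 6 of genes that rose (not in EGLN3 or P4HA2) and 12 of 16 of genes that did not pass. A match is a description of the letters and not a site of binding. The windows below show the core with its surroundings in genes that fell and genes that rose, written 5′ to 3′ on the strand of the gene with the core in capitals, which reads CACGT or CACGC where it lies on the opposite strand.
CA9: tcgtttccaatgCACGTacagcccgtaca
LOX: tccaatcgcattACGTGaacaaatagctg
EGLN2: cggggcgcggtcACGTGcccaccgggcga
SLC2A1: tagcaacagcgaGCGTGccggtcgctagt
BHLHE40: ggcagtggccagACGTGcctggagtcaca
ADM: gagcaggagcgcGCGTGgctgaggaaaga
EPAS1: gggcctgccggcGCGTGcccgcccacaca

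The CA9 window lies at chr9:35673898-35673926 with its core beginning at position -18, counted with the start site as 1 and no position 0, and that of LOX at chr5:122078341-122078369 on the minus strand at position -98. LOX, the gene with the largest fall, held 4 ACGTG cores in its promoter window and no GCGTG. The EGLN2 window lies at chr19:40799131-40799159 at position -48, inside a CACGTG, and that of SLC2A1 at chr1:42958827-42958855 on the minus strand at position 26, past the start site. The BHLHE40 window lies at chr3:4979251-4979279 at position -174. BHLHE40, the gene with the largest rise among those called, also held 4 ACGTG matches, 2 of them from 1 CACGTG. PPP1R3C, which was not detected, held 4 ACGTG matches as well. FAM162A and DDIT4, which did not pass, held 4 matches to either core each, and BNIP3, which fell, held 6. The ADM window lies at chr11:10304960-10304988 at position -101 and that of EPAS1 at chr2:46297278-46297306 at position -117.

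Genes of glucose use that answer to HIF were set beside these genes, as a list of 21 glycolytic and glycogen enzymes, transporters and regulators. Of the 21, 9 fell and 3 rose (42.9% and 14.3%, against 13.4% of all genes in each direction and 20.6% and 20.1% of all genes above a mean log2 CPM of 3), and the median log2 fold change was -0.24. HK2, which phosphorylates glucose, was at 61.2, 60.4 and 76.7 CPM in WT and at 44.7, 46 and 32.4 CPM in METTL3-KO, and fell by 0.69 ± 0.134 on the log2 scale (adjusted p = 0.00298). ENO2, an enolase, was at 61.7, 65.5 and 55.7 CPM in WT and at 34.4, 47.3 and 31.8 CPM in METTL3-KO, and fell by the same amount (adjusted p = 0.0026). The groups of both genes were apart, and both calls held with any single sample left out. Without both replicates 3, which held the highest and the lowest HK2 value, HK2 stood at -0.43 and ENO2 at -0.66.

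PFKFB4 and PFKFB3 are paralogs that make and remove the activator of phosphofructokinase, and they moved apart: PFKFB4 fell (-0.47 ± 0.13, adjusted p = 0.0194) and PFKFB3 rose (0.40 ± 0.0969, adjusted p = 0.0103). LDHA, which makes lactate, was at 1180, 1200 and 1120 CPM in WT and at 880, 1050 and 789 CPM in METTL3-KO, with the groups apart (-0.37 ± 0.096, adjusted p = 0.0146). PGK1 was at -0.01 ± 0.0796 (adjusted p = 0.96). PDK1, which holds pyruvate back from mitochondria, was at -0.46 ± 0.184 (adjusted p = 0.0911). It passed without METTL3-KO replicate 2 (-0.68, adjusted p = 0.0222) and with the length and GC correction (-0.48, adjusted p = 0.0101), and stood at -0.12 without both replicates 3 (adjusted p = 0.248). The call of PFKFB4 was lost without WT replicate 1 or 2 or METTL3-KO replicate 1 (adjusted p from 0.0556 to 0.0813), that of PFKFB3 without WT replicate 1 or METTL3-KO replicate 1 or 2 (0.051 to 0.0565), and that of LDHA without WT replicate 1 or 2 or METTL3-KO replicate 1 or 3 (0.0564 to 0.0749). Many calls in this list lay near the threshold: 9 lower genes became 3 without WT replicate 1, WT replicate 2 or METTL3-KO replicate 1 and 4 without METTL3-KO replicate 3, and the 3 higher genes became 1, 1, 1 and 2. They numbered 6 without WT replicate 3 and 0 without METTL3-KO replicate 2.

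The HIF targets outside the subunits and oxygen sensors, 28 of which were tested, had 5 lower and 6 higher genes (17.9% and 21.4%, against 13.4% of all genes in each direction and 20.6% and 20.1% of those above a mean log2 CPM of 3) and a median log2 fold change of 0.13. Thus 9 of 21 glycolytic genes and 5 of 28 other HIF targets fell. The lists differ in level, and better covered genes are called more often. The 28 hold genes far below a mean log2 CPM of 3, such as STC1 at 0.0972 CPM in WT. GBE1, the lowest of the 21, averaged 5.59 CPM in WT. The lists were not matched for level, and the difference between them was not tested.

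VHL acts through partners in its ubiquitin ligase. Of these, TCEB1 and TCEB2 (the elongins C and B), CUL2 and RBX1, 0 of 4 passed with edgeR and 0 of 4 with DESeq2. With edgeR 26.8% of all genes tested passed. Of the 4 partners, 2 had an unadjusted p under 0.05, both lower. The share of all genes under that unadjusted threshold was not computed. TCEB2 was at 141, 136 and 103 CPM in WT and at 98.7, 96 and 119 CPM in METTL3-KO, so that the replicates 3 lay on the other group's side (-0.27 ± 0.121, adjusted p = 0.121). Without both replicates 3, TCEB1, TCEB2 and RBX1 passed as lower (-0.42, -0.51 and -0.71) and CUL2 was at 0.04. That fit called 4810 of all 21242 genes tested lower. The same 3 genes passed without WT replicate 3 alone, where 3820 of 21923 genes were lower. With the length and GC correction RBX1 did not pass (-0.35, adjusted p = 0.118). TCEB1 and TCEB2 matched no annotated length, so that correction did not act on them.

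Of 10 further genes of the HIF family and its co-regulators, 9 were tested, of which 3 rose and 1 fell (33.3% and 11.1%, against 13.4% of all genes in each direction). Of all genes above a mean log2 CPM of 3, 20.1% rose and 20.6% fell. CITED2, which competes with HIF for its coactivators, was at 13.4, 17 and 13.6 CPM in WT and at 19.3, 22.5 and 21.7 CPM in METTL3-KO, with the groups apart (0.53 ± 0.112, adjusted p = 0.00493). SIAH2, a ubiquitin ligase that acts on the EGLN hydroxylases, was at 44.9, 45.7 and 43.8 CPM in WT and at 59.8, 58.4 and 63.9 CPM in METTL3-KO, also apart (0.44 ± 0.0724, adjusted p = 0.00105). Both calls held with any single sample left out.

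CREBBP, a coactivator of HIF, rose (0.37 ± 0.118, adjusted p = 0.0385), although its groups overlapped through WT replicate 3. That call was lost without WT replicate 1 or 2 (adjusted p = 0.124 and 0.12) and without METTL3-KO replicate 1 or 2 (adjusted p = 0.161 and 0.0888), and the value was 0.58 without both replicates 3. EP300, its paralog, went from 0.21 ± 0.158 (adjusted p = 0.365) to 0.55 (adjusted p = 2.95e-10) without both replicates 3. With the length and GC correction EP300 stood at 0.17 (adjusted p = 0.225) and CREBBP at 0.30 (adjusted p = 0.00366). GNB2L1, also called RACK1, which promotes oxygen-independent loss of HIF-1α, fell (-0.34 ± 0.089, adjusted p = 0.0143), and was likewise lost without any 1 of those 4 samples (adjusted p from 0.0685 to 0.0873). HIF3A had 0 counts in WT and 8 in METTL3-KO (5, 3 and 0 in replicates 1 to 3), so the groups overlapped, and it did not pass (adjusted p = 0.0756). Against a floor of 3 counts over the WT group its METTL3-KO level was 2.52-fold, with no counting error allowed for in METTL3-KO. ARNT2 was not detected.

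How firmly each call stood differed between genes. Of the 14 called genes, 7 passed in each of the 6 fits that left out 1 sample: EGLN2, VEGFA and LOX among those that fell, and ADM, P4HA2, JMJD6 and BHLHE40 among those that rose. The count of lower genes went from 6 to 3 without WT replicate 1, METTL3-KO replicate 1 or METTL3-KO replicate 3. Without both replicates 3, 9 of the 36 tested HIF genes were lower and 15 higher. In that fit 4810 of all 21242 genes tested were lower and 4573 higher. Shares among genes of like level were not computed for it. All 14 calls also passed with DESeq2, and all 14 once length and GC content of transcripts were corrected for in each sample, a correction that added EGLN1 and BNIP3L. That correction called more of all 22452 genes tested as well, 3785 lower and 3808 higher, against 3007 and 3012 without it. With the replicate number as a block, 5 of the 14 passed, and 11 with the block and that correction together. The 10 genes that passed in addition without both replicates 3 were HIF1A, ARNT, EGLN1, BNIP3L, FAM162A, P4HA1, PLOD2, KDM3A, BHLHE41 and ANKZF1. Of these 10, only EGLN1 and BNIP3L passed with the length and GC correction of all samples.

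**Figure D4:**
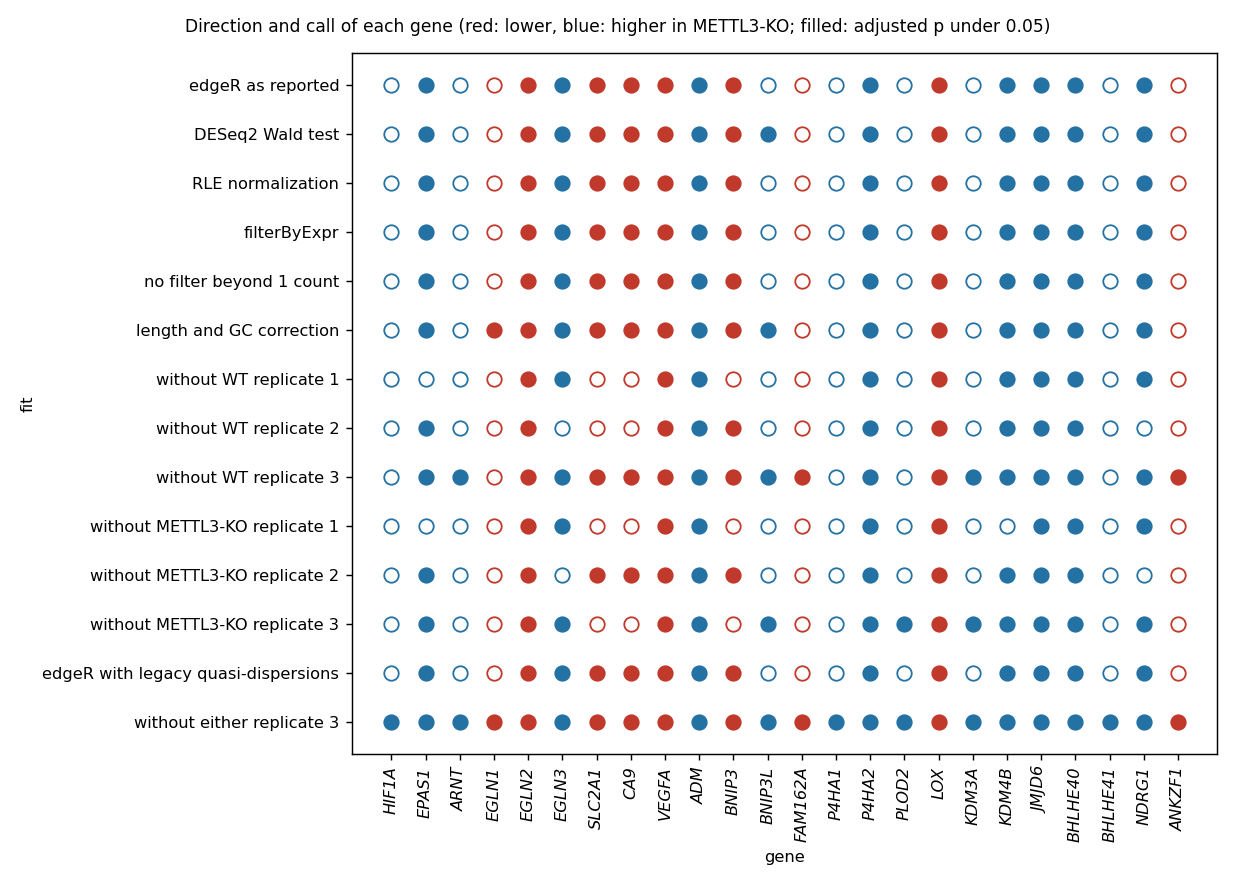
Direction and call of the 24 HIF genes that passed in at least 1 fit, with a fit in each line and a gene in each column; red is lower and blue higher in METTL3-KO, and filled points passed an adjusted p of 0.05. No called gene changes colour in any line, and the line without both replicates 3 is filled throughout. Models that block by replicate are not drawn. Blocking kept 5 of the 14 calls, and 11 once length and GC content were also corrected for.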

How the data were processed

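RNA-seq of HCT116 cells, 3 WT and 3 METTL3-KO samples grouped by their labels, was used, and no sample was left out. Paired-end reads had been aligned by the authors with TopHat 2.0.11 (hg19, Ensembl transcript index) and counted with HTSeq in union mode, and raw counts for each symbol were deposited. Reads in more than 1 gene or place had been dropped by that counting. Its strand setting is not given in the sources used here, and without strand, genes that overlap an antisense gene are counted from their remaining exon bases. The files carry other replicate numbers and group names (NC, SiM3) than the labels, and the labels were used.

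A gene was tested where its counts summed to 5 or more in at least 1 condition. METTL3-KO was compared with WT by edgeR's quasi-likelihood test (edgeR 4.0.16, R 4.3.3) with TMM normalization, two-sided, with Benjamini-Hochberg adjustment over all 22452 genes tested. The standard error is the size of the log2 fold change divided by the square root of F. CPM uses TMM-scaled library sizes. The form of edgeR's dispersion estimate (legacy off) was taken over from earlier work on these data after both forms had been seen. Gene positions and exon lengths came from GENCODE on GRCh37, not the authors' own annotation, and 33872 of 56638 symbols matched. Counts per sample ran from 20936091 to 30142144, and floors cover counting error only.

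The members and lists were chosen with earlier results of these data known, so no list was tested as a set. All 39 genes are accounted for by role. Values per sample are given for those with an adjusted p under 0.05 and an absolute log2 fold change of at least 0.3 and for the HIF subunits, sensors, SLC2A1, CA9 and VEGFA, and for some others chosen after their values were seen. From each further list up to 5 called genes with the largest change are named, and HK2, LDHA, PGK1 and PDK1, with others beyond that rule. Alternatives were DESeq2 1.42.0, RLE normalization, other filters, the replicate number as a block, a spline correction (5 degrees of freedom) for GC content and transcript length, and leaving out samples. The procedures were tested on simulated counts.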

Additional observations from a re-analysis of the deposited data

How the results depend on the processing

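No gene called among the 36 tested HIF genes changed direction under any alternative. Their calls, 6 lower and 8 higher, were the same 14 under RLE normalization, both other filters and edgeR's legacy quasi-dispersions (chosen after seeing the data, with 2959 and 2986 genes called in all), and DESeq2 added BNIP3L. Over the fits that left out 1 sample or both replicates 3, 3 to 9 of the 36 HIF genes were lower and 6 to 15 higher. Of all genes, 21242 to 22025 of which were tested, 1975 to 4810 were lower and 2213 to 4573 higher. In the same fits 3 to 12 glycolysis genes were lower and 0 to 6 higher (median -0.28 to -0.16), 0 to 3 VHL partners were lower (median -0.46 to -0.20), and 0 to 1 of the other HIF-family genes were lower and 2 to 5 higher (median 0.20 to 0.42). Fits with fewer samples also tested fewer genes, and otherwise the cause was not tested. The higher glycolysis genes numbered 5 with filterByExpr, 4 with RLE normalization and 6 with the length and GC correction, which also called 1 VHL partner lower. That partner was TCEB1, which matched no annotated length and so was not itself corrected.

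With the replicate number as a block, 1 HIF gene was lower (LOX) and 4 were higher (ADM, P4HA2, JMJD6 and BHLHE40), and 1582 and 1694 of all genes were called. The glycolysis genes then numbered 4 lower and 0 higher, and 0 of the other HIF-family genes were lower. In the legacy form, also added after the data were seen, the block left 3 lower and 5 higher HIF genes (EGLN2, VEGFA and NDRG1 in addition), 5 lower and 0 higher glycolysis genes, 0 lower HIF-family genes and 1719 and 1810 of all genes, so the block's count depends on this choice. With the block and the length and GC correction together, 11 of the 14 HIF calls passed. The glycolysis genes then numbered 9 lower and 0 higher, and 2667 of all genes were lower and 2793 higher. Deviations from the group mean correlated at -0.586, -0.39 and -0.784 between same-numbered samples (over 10336 genes), and no sample correlated best with its own number. Replicate 3 stood apart in both groups, in opposite directions with transcript length, and such a difference alone can give these signs. The correlations therefore cannot show whether same-numbered samples shared a culture or a preparation.

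Signs that turned all belonged to genes that had not passed. PGK1, at -0.01, stood at 0.004 with DESeq2 and with RLE normalization, 0 with filterByExpr and 9e-04 with no filter beyond 1 count. With samples left out, the lowest and highest log2 fold changes were -0.085 and 0.059 for PGK1, -0.082 and 0.15 for GBE1, -0.025 and 0.062 for HSP90AB1, -0.019 and 0.081 for VHL, -0.15 and 0.0027 for HIF1AN, -0.071 and 0.30 for ANGPTL4, -0.003 and 0.13 for PLOD1, -0.36 and 1.71 for LOXL2, and -0.38 and 0.15 for RORA. Genes under about 1 CPM (STC1, LOXL2, TMEM45A, ANKRD37) had standard errors of 0.676, 0.728, 0.552 and 0.372, so that only large changes could have been detected in them.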
